A study of Mus musculus with 20 samples.

Results

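Total RNA of 2 unnumbered cultures of mouse embryonic fibroblasts, 1 without PML (KO) and 1 wild-type (WT), was compared gene by gene. They are 2 of the 20 samples of a series on chromatin and transcription in such cells, which also holds 6 numbered RNA cultures and ChIP libraries of histone marks, H3.3 and PML. The KO cells came from Pml-null mice and the WT cells from wild-type mice, both on a C57BL/6 background, at passage 10 to 15. Both cultures were grown under proliferating conditions to confluency, received no transfection or other agent, and were harvested as native cells. The deleted part of Pml, the age and sex of the embryos and the number of embryos per culture are not given in the sources used here. Genes entered the comparison when 1 name stood on 1 line and FPKM, the deposited level, which counts fragments relative to transcript length and library size, was at least 1 in either culture. That left 11687 of 22602 genes. Just inside this limit stood Pde9a at 0.0470 FPKM in KO and 1.00 in WT, and just outside it Slc45a3 at 0.999 FPKM in KO and 0.969 in WT.

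PML is the scaffold protein of PML nuclear bodies, small spheres in the nucleus that gather SUMO-modified proteins together with partners such as SP100 and DAXX. DAXX acts with ATRX as a chaperone that places the histone variant H3.3 in heterochromatin, and PML itself is an interferon-induced gene. Embryonic fibroblasts are mesenchymal cells that lay down collagens, proteoglycans and elastic-fibre proteins, and in culture they can build contractile actin bundles as myofibroblasts do.

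Each genotype had 1 culture, so no spread between cultures could be measured, no test was possible, and every difference below describes these 2 cultures. Differences are KO minus WT of log2(FPKM + 1), which understates the change of low genes, and a gene is called higher or lower at 2-fold, a log2 difference of at least 1. Summed FPKM was 499754 in KO and 514537 in WT. The depth was read from low values: among 1208 genes under 0.3 FPKM in both cultures, the most frequent ratio of KO to WT was 0.835, held within 0.05 log2 by 335 genes, which is the ratio expected of the value of a single fragment if KO had 1.20 times as many fragments as WT. From single-exon olfactory receptor genes, 1 FPKM of a 1 kb transcript was about 6.68 fragments in KO and 5.61 in WT, if their lowest values are single fragments. Values near 1 FPKM thus rest on few fragments.

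KO was higher for 203 genes (1.74%) and lower for 448 (3.83%), 5.57% in either direction. The median log2 difference over all 11687 genes was 0.01, with quartiles at -0.22 and 0.21. At 4-fold, 33 genes were higher and 95 lower. Among protein-coding genes 168 were higher and 423 lower, so lower genes prevailed there too. Of the called genes, 34 were listed at 0 in KO and 17 in WT.

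**Figure D1:**
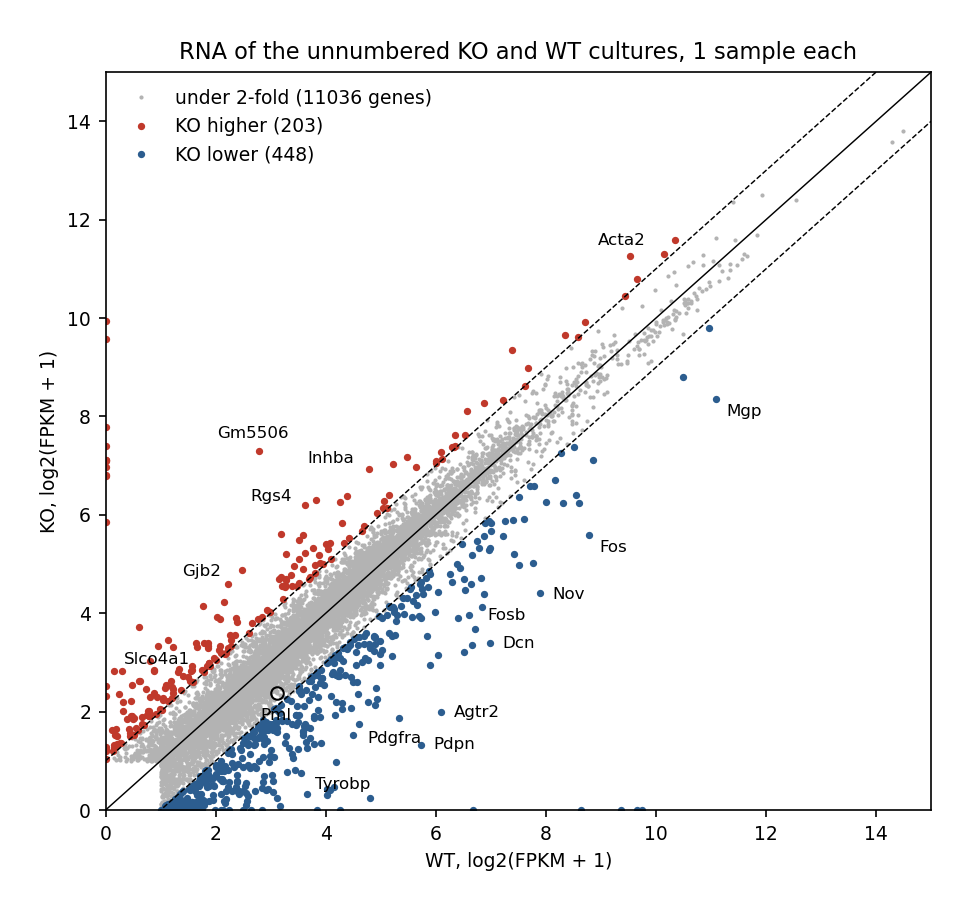
FPKM of 11687 genes in the KO culture (vertical axis) against the WT culture (horizontal axis), both as log2(FPKM + 1), with dashed lines at 2-fold. Of the 203 higher genes (red) 33 pass 4-fold and of the 448 lower genes (blue) 95, and Pml (ringed) lies between the lines.

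Pml, on chromosome 9 (chr9:58217179-58249796, GRCm38.p6), had 4.22 FPKM in KO and 7.62 FPKM in WT, a log2 difference of -0.72 that stays under 2-fold. Reads outside a deleted part would still be counted, so the total over the gene does not check the label. The list of PML body genes, which includes Pml, differed little: of 16 used, 0 were higher and 0 lower, with a median of 0.04. Daxx, the H3.3 chaperone, had 10.47 FPKM in KO and 10.45 in WT, and Hipk2, a kinase found in the bodies, had 5.64 in KO and 3.59 in WT. Of 15 H3.3 genes and chaperones 0 passed 2-fold, with Chaf1b, a subunit of the replication-coupled assembly factor CAF-1, farthest from 0 at 3.93 FPKM in KO and 6.88 in WT. H3f3b, 1 of the genes that encode H3.3, had 202 FPKM in KO and 271 in WT. The H3K9 methyltransferase and HP1 list (13 used) and the Polycomb and H3K27 demethylase list (21 used) also had 0 called genes, with medians of -0.10 and -0.03.

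The labelled cell type was checked against its markers. Fibroblast and mesenchyme markers were abundant in both cultures: Col1a2, an alpha chain of type I collagen, had 2533 FPKM in KO and 3109 in WT, and Vim, the intermediate filament of mesenchymal cells, had 2137 in KO and 1528 in WT. Of the 11 markers 1 was higher, S100a4 with 505 FPKM in KO and 203 in WT, and 2 were lower. The lower ones were Pdgfra, the PDGF receptor of mesenchymal progenitors, with 2.37 FPKM in KO and 23.3 in WT, and Col3a1 with 886 in KO and 1984 in WT. Markers of lymphoid, mast and erythroid cells had 0 genes above the limit of 1 FPKM in either culture.

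Macrophage markers were present in WT and low in KO. Of 18 markers 17 were used, 16 of them were lower in KO, 0 were higher, and the median log2 difference was -2.02. Their summed level was 14.7 FPKM in KO and 217 FPKM in WT. Tyrobp, the adaptor of activating myeloid receptors, was listed at 0 in KO and had 18.1 FPKM in WT, and Aif1, a cytoskeletal protein of macrophages, was listed at 0 in KO and had 0.740 in WT. The 3 chains of C1q, the opening component of the complement cascade, were likewise lower: C1qa had 0.974 FPKM in KO and 17.1 in WT, C1qb 0.235 in KO and 15.2 in WT, and C1qc 0.385 in KO and 16.8 in WT. Lyz2, the lysozyme of myeloid cells, kept 8.30 FPKM in KO and had 90.2 in WT. Cd52 and Fcrls, outside the marker list but also expressed by myeloid cells, had 0.350 and 0.0535 FPKM in KO, and 15.2 and 7.96 FPKM in WT. In RNA of whole cultures, fewer cells of a type and less RNA per cell cannot be told apart. Among markers of other cell types, of 7 smooth muscle markers 3 were higher and 1 lower. Of 5 mesothelial markers only 3 were used and 2 were lower, with sums over the 5 of 2.07 FPKM in KO and 7.74 in WT. The 2 lower ones, Upk1b and Upk3b, reached 1 FPKM only in WT, with 0.843 and 0.121 in KO and 3.17 and 1.98 in WT. Of 12 neural markers only 3 were used and 2 were higher. These were Stmn2, which reached 1 FPKM only in KO (9.07 in KO, 0.935 in WT), and Nes (15.2 in KO, 6.88 in WT). Of 11 epithelial markers only 2 were used, and both were higher. These keratins, Krt7 and Krt19, had 3.03 and 4.81 FPKM in KO and 0.697 and 1.15 FPKM in WT. Of the 11, 6 were listed at 0 in KO and 4 in WT, with Epcam and Cdh1 at 0 in both.

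Genes that separate the sexes were read in both cultures. The Y-linked RNA helicase gene Ddx3y had 11.4 FPKM in KO and 21.7 in WT, and the Y-linked translation factor gene Eif2s3y had 10.1 in KO and 21.7 in WT. Xist, the RNA that coats the inactive X chromosome, had 8.25 FPKM in KO and 5.89 in WT. Transcripts of the Y chromosome and of an inactive X were thus present in both cultures, and their part in the differences below was not tested.

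Immediate-early genes, which serum and growth factors switch on within minutes, were lower in KO. Of 26 used genes of this list 16 were lower and 0 higher, with a median of -1.13 beside 0.01 over all genes. Fos, a subunit of the AP-1 transcription factor, had 47.1 FPKM in KO and 440.1 FPKM in WT, a log2 difference of -3.20. Its paralogue Fosb had 11.9 FPKM in KO and 103 in WT. The zinc-finger factor Egr1 had 14.7 in KO and 95.9 in WT, and Ier2 had 20.1 in KO and 117 in WT. Nr4a1, an orphan nuclear receptor, had 25.4 FPKM in KO and 112 in WT. Not every member followed: Myc had 12.9 FPKM in KO and 12.0 in WT, and Fosl2, another AP-1 subunit, had 63.6 in KO and 40.6 in WT. Feedback genes of the MAP kinase pathway, which lies upstream of many immediate-early genes, were called in 3 of 16 cases, all lower: Spry1 (14.8 FPKM in KO, 41.8 in WT), Spry2 (9.30 in KO, 24.8 in WT) and the ERK phosphatase gene Dusp6 (16.7 in KO, 34.6 in WT). The list did not shift as a whole: 7 of the 16 had a positive difference and the median was -0.15. Dusp5, for example, had 10.35 FPKM in KO and 4.88 in WT, just under 2-fold.

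**Figure D2:**
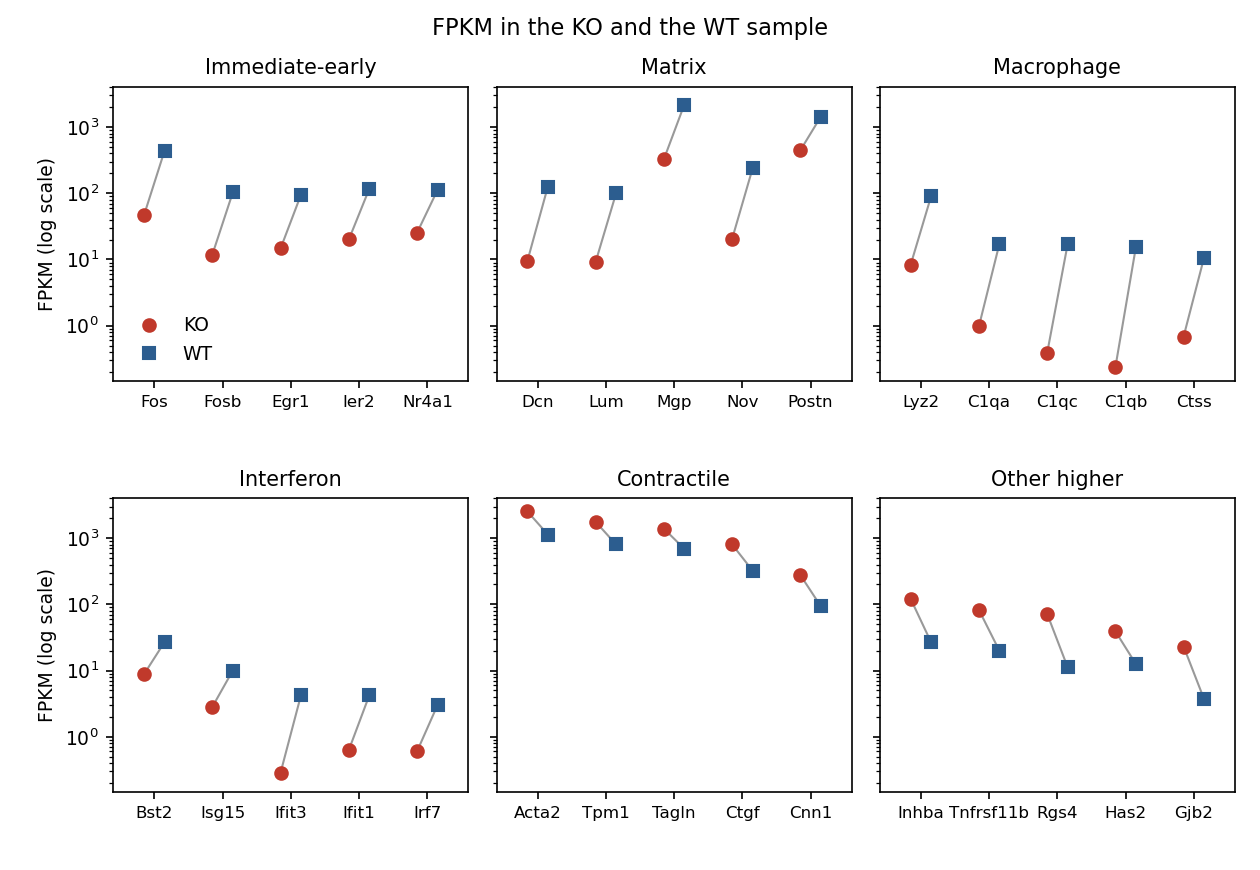
FPKM on a log scale of 30 genes in the KO culture (red circles) and the WT culture (blue squares), 1 culture each, in 6 groups. The immediate-early, matrix, macrophage and interferon genes drawn lie lower in KO, for example Fos at 47.1 FPKM in KO and 440.1 in WT, while the contractile and other genes drawn lie higher, for example Inhba at 121 FPKM in KO and 26.7 in WT.

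Extracellular matrix genes split by class. Of 11 small leucine-rich proteoglycans, which bind collagen fibrils and set their spacing, 4 were lower and 0 higher, with a median of -0.72. Decorin (Dcn) had 9.46 FPKM in KO and 126 in WT, and lumican (Lum) had 9.17 in KO and 100.1 in WT. Podn had 10.4 FPKM in KO and 28.8 in WT, while biglycan (Bgn), the most abundant member, had 888 in KO and 926 in WT. Dcn, Lum and Epyc are neighbours on chromosome 10 (chr10:97479500-97681908), and Epyc was listed at 0 in KO with 1.26 FPKM in WT. Of 27 collagen genes 5 were lower and 0 higher, with a median of -0.40. The fibril-associated Col14a1 had 0.632 FPKM in KO and 7.11 in WT, and the network-forming Col8a2 had 24.9 in KO and 90.4 in WT. Of 21 collagen-maturation genes 2 were higher and 1 lower, and 8 had a negative difference. The lower one was Adamts2, a procollagen peptidase, with 10.6 FPKM in KO and 28.2 in WT. Loxl4, a lysyl oxidase that crosslinks collagen, had 22.3 FPKM in KO and 8.55 in WT, and Pcolce2, an enhancer of procollagen processing, had 14.1 in KO and 3.07 in WT.

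Among 48 matrix glycoproteins 10 were lower and 2 higher. Nov, a matricellular CCN protein, had 20.4 FPKM in KO and 237 in WT. Matrix Gla protein (Mgp), an inhibitor of calcification, had 326 FPKM in KO and 2188 in WT, a log2 difference of -2.74. Mfap4, an elastic-fibre protein, had 35.6 in KO and 169.7 in WT, and periostin (Postn) had 446 in KO and 1437 in WT. The 2 higher members were Ctgf, a CCN protein induced by TGF-beta, with 804 FPKM in KO and 324 in WT, and Ltbp1, which tethers latent TGF-beta to the matrix, with 167 in KO and 80.5 in WT. The largest coding differences included further secreted or surface proteins. Egfl6, a secreted protein with EGF-like repeats, had 0.186 FPKM in KO and 26.95 in WT. Podoplanin (Pdpn), a membrane mucin, had 1.51 in KO and 51.9 in WT, and the angiotensin receptor gene Agtr2 had 2.95 in KO and 67.5 in WT. Clec11a, a secreted growth factor of skeletal stem cells, had 2.67 FPKM in KO and 39.4 in WT.

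Proteases and growth factor systems showed calls in both directions. Of 24 matrix proteases and inhibitors 3 were higher and 3 lower. Plaur, the receptor of urokinase, had 47.0 FPKM in KO and 11.0 in WT. The stromelysin gene Mmp3 had 3.55 FPKM in KO and 26.3 in WT. In the insulin-like growth factor system 5 of 17 were lower and 1 higher. Igf1 had 7.96 FPKM in KO and 30.7 in WT, and its binding protein gene Igfbp4 had 46.6 in KO and 149 in WT, whereas Igfbp7 had 785 in KO and 384 in WT. Among the Wnt antagonists and targets 4 of 12 were lower and 1 higher. The secreted antagonists Sfrp1 and Sfrp2 had 13.9 and 6.68 FPKM in KO, and 51.9 and 30.7 FPKM in WT.

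In the TGF-beta family the calls were ordered by role as follows. Of 12 ligand genes 2 were higher and 2 lower. Inhba, the subunit of activin A, had 121 FPKM in KO and 26.7 in WT, and Tgfb2 had 42.1 in KO and 15.8 in WT. Gdf10 had 0.368 FPKM in KO and 6.18 in WT, and Gdf6 had 0.443 in KO and 2.09 in WT. Of 11 receptor genes 2 were lower and 0 higher: Acvrl1, the receptor ALK1 for BMP9 and BMP10, had 1.08 FPKM in KO and 9.63 in WT, and the co-receptor gene Tgfbr3 had 3.34 in KO and 11.1 in WT. Of 14 inhibitors Fstl3, which binds activin, was higher with 12.9 FPKM in KO and 5.33 in WT, and 1 other was lower. Of 12 target genes 2 were higher (among them Ctgf) and 3 lower (Postn, Id1 and Hey1). Id1, a target of BMP signals, had 55.8 FPKM in KO and 117 in WT.

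The contractile list held targets of SRF and YAP, factors that respond to actin tension. Of its 27 used genes 25 had a positive difference, with 6 higher (4 when differences were centred on the median of abundant genes), 2 lower and a median of 0.63. Smooth muscle actin (Acta2) had 2534 FPKM in KO and 1135 in WT. Calponin (Cnn1), a regulator of smooth muscle contraction, had 277 in KO and 93.6 in WT, and the tropomyosin gene Tpm1 had 1766 in KO and 803 in WT. The 2 lower members were Itgb2 and Des. Itgb2, the integrin beta chain of leukocytes, had 0.142 FPKM in KO and 2.44 in WT, and desmin (Des), the intermediate filament of muscle, had 5.07 in KO and 21.7 in WT. Skeletal actin (Acta1), in the skeletal muscle list, had 43.8 FPKM in KO and 10.4 in WT. Of 16 integrins 1 was higher, Itga5, the alpha chain of the fibronectin receptor, with 69.7 FPKM in KO and 32.0 in WT.

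Connexins, the subunits of gap junctions, were higher in 5 of 7 cases, with 0 lower and a median of 1.17. The levels of most were low, and with a minimum of 5 FPKM 2 of 4 were higher. Gjb2 had 23.1 FPKM in KO and 3.69 in WT. Gja1, the main connexin of fibroblasts and the most abundant here, had 107 FPKM in KO and 102 in WT. Other higher genes of large difference were Rgs4, which shuts off G protein signals (72.0 FPKM in KO, 11.3 in WT), Anxa8, an annexin that binds membranes in a calcium-dependent way (77.9 in KO, 13.1 in WT), and Mgll, the lipase that breaks down the endocannabinoid 2-AG (28.5 in KO, 4.58 in WT). Tnfrsf11b, the decoy receptor osteoprotegerin, had 82.6 FPKM in KO and 20.0 in WT. Has2, a hyaluronan synthase, had 39.2 in KO and 12.6 in WT, and Ptgs2, the inducible cyclooxygenase, had 132 in KO and 63.3 in WT. Gm5506, the coding gene with the largest positive difference, had 157 FPKM in KO and 5.89 in WT. It is a near-identical copy of the enolase gene Eno1, which had 374 FPKM in KO and 331 in WT, so how reads were split between the copies is uncertain. The same holds for Gm3002, Gm10406 and Gm3558, similar neighbours on chromosome 14, of which Gm3558 had 3.97 FPKM in KO and was listed at 0 in WT.

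**Figure D3:**
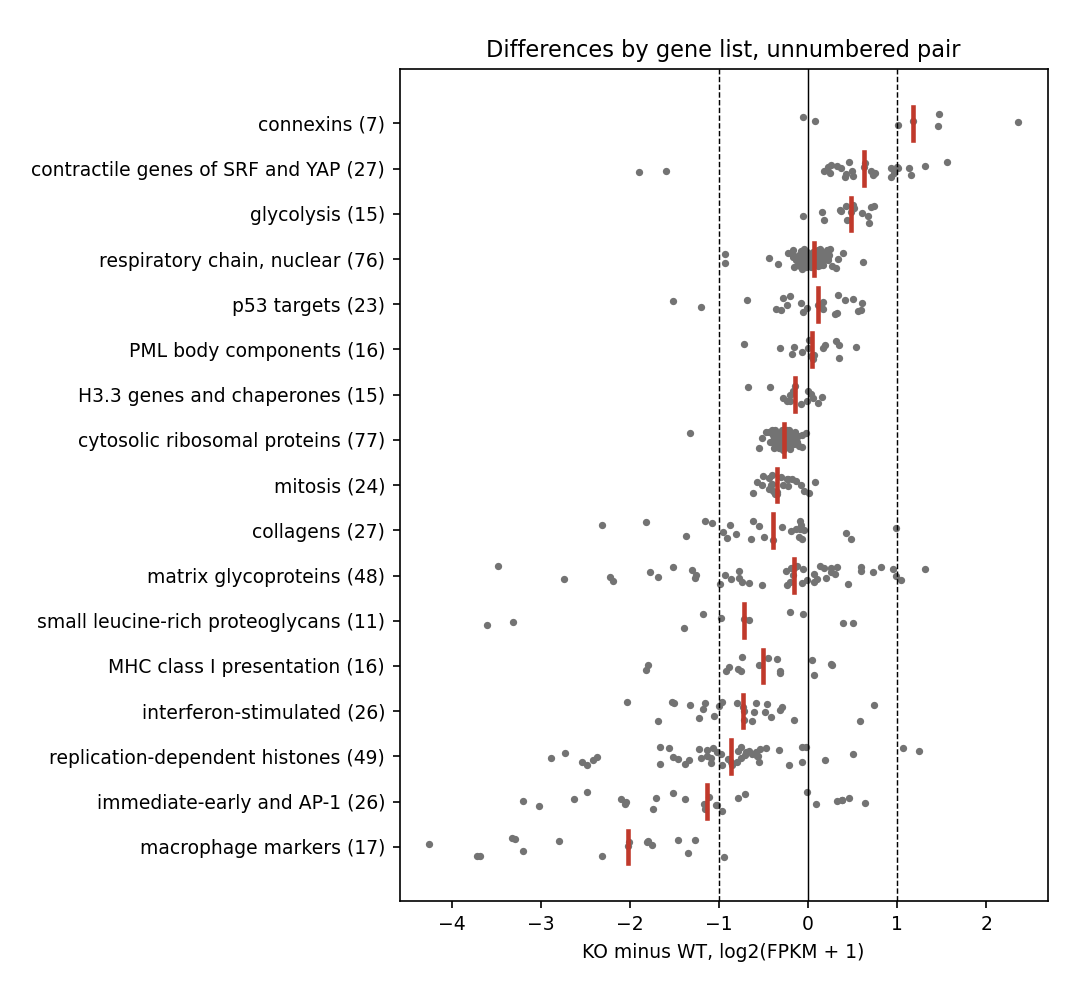
KO minus WT of log2(FPKM + 1) for each used gene (points) of 17 lists, with the number of used genes in brackets, the list median as a red bar and dashed lines at 2-fold. Macrophage markers (median -2.02) and immediate-early genes (median -1.13) lie farthest to the left, connexins (median 1.17) farthest to the right, and the medians of the ribosomal (-0.27), respiratory (0.07) and PML body (0.04) lists lie near 0.

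Of 26 interferon-stimulated genes used, 10 were lower, 0 higher and 24 had a negative difference, with a median of -0.73. With a minimum of 5 FPKM 4 of 11 were lower. The most abundant member, Ifitm3, which blocks virus entry, had 229 FPKM in KO and 355 in WT, under 2-fold, and Irgm1, an interferon-induced GTPase, had 32.3 in KO and 21.3 in WT. Ifit3, whose product is an antiviral protein induced by interferon, had 0.288 FPKM in KO and 4.29 in WT. Its neighbour and paralogue Ifit1 had 0.632 in KO and 4.23 in WT, and together with I830012O16Rik they form a run of lower genes on chromosome 19 (chr19:34583119-34650009). The ubiquitin-like modifier gene Isg15 had 2.83 FPKM in KO and 10.0 in WT. Bst2, which encodes the virus tether tetherin, had 8.85 in KO and 26.98 in WT, and Irf7, a factor that induces interferon genes, had 0.604 in KO and 3.02 in WT. Of 16 genes of MHC class I presentation 2 were lower: the nonclassical class I gene H2-T23 (3.10 FPKM in KO, 13.5 in WT) and the immunoproteasome subunit gene Psmb8 (0.849 in KO, 5.45 in WT). B2m, the light chain of class I molecules, had 528 FPKM in KO and 504 in WT. Macrophages express these genes too, and the macrophage markers summed to 14.7 FPKM in KO and 217 in WT. Their part in the lower interferon-stimulated genes was not tested.

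The promoters of Ifit3, Ifit1 and Isg15, the 3 lowest members by difference, are shown because they carry the interferon-stimulated response element (ISRE), at which STAT and IRF factors bind. The motif searched was TTTC, any 2 bases and TTTC again, on both strands, in the 250 bases before and the 50 bases after each start. Sequences are from RefSeq, build GRCm38.p6, and capitals mark the matches. Ifit3 is at chr19:34583279-34583578 (plus strand), Ifit1 at chr19:34640639-34640938 (plus strand) and Isg15 at chr4:156200769-156201068 (minus strand).
Ifit3: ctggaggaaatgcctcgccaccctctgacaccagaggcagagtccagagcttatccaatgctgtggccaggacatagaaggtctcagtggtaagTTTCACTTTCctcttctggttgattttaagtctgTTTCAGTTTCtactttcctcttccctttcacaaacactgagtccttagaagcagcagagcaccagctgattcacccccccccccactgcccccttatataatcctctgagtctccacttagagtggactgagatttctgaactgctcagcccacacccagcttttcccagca
Ifit1: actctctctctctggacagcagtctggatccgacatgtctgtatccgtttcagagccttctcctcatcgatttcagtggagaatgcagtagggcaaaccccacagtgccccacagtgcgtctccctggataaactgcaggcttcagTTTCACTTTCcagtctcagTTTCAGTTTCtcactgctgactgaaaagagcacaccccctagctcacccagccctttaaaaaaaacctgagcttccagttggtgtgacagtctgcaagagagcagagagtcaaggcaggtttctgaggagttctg
Isg15: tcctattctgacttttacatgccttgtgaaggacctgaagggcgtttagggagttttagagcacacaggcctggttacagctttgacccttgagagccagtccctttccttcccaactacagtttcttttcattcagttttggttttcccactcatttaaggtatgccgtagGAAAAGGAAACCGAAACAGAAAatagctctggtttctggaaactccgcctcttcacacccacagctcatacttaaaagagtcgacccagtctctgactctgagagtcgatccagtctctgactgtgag
Ifit3 and Ifit1 hold 2 matches each, and Isg15 holds 3 that overlap in 1 run of capitals, read on the strand opposite to the printed one. Of 22 members with a promoter sequence 13 (59.1%) held a match, against 3.49% of 27025 promoters of all genes. Among the lower members 6 of 8 held one, and among the members under 2-fold 7 of 14. Over all 326 lower genes with a promoter sequence the share was 10.1%, and over 129 higher genes 2.33%. A match is a description of the letters and not a bound site.

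Chemokines were called in both directions, 8 lower and 3 higher of 21, and 2 lower and 3 higher of 11 with a minimum of 5 FPKM. Cxcl2 and Ccl12 were listed at 0 in KO, with 4.65 and 3.74 FPKM in WT. Ccl3 and Ccl4, macrophage inflammatory proteins, were also listed at 0 in KO, with 1.99 and 3.39 FPKM in WT, and lie in a run of 4 lower genes on chromosome 11. Ppbp, the platelet basic protein, had 47.7 FPKM in KO and 8.15 in WT, and Cxcl14 had 166 in KO and 79.8 in WT. Of 10 complement and coagulation genes 4 were lower and 0 higher. They included C1s and C1ra, proteases of the C1 complex, with 2.15 and 4.13 FPKM in KO and 12.2 and 12.4 FPKM in WT, and the C1 inhibitor gene Serping1 with 2.82 in KO and 10.5 in WT. These calls stand beside the lower macrophage markers, and how much of them comes with those cells was not tested.

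Replication-dependent histone genes, which are transcribed in S phase and yield mRNA without a poly(A) tail, were lower in KO. Of 49 used, 21 were lower and 2 higher, with a median of -0.86. The lower genes came from every class, with 1 of 5 for H1, 6 of 12 for H2A, 4 of 12 for H2B, 5 of 10 for H3 and 5 of 10 for H4. Summed over all classes the level was 3322 FPKM in KO and 6245 FPKM in WT. Hist1h4j had 7.89 FPKM in KO and 64.8 in WT, and Hist1h2bm had 16.4 in KO and 114 in WT. The exceptions were Hist1h4i, with 83.3 FPKM in KO and 34.6 in WT, and Hist1h2bp, with 14.1 in KO and 6.20 in WT. Histone genes of a class are near-identical, so the value of a single one is uncertain. Other S-phase and division genes did not pass 2-fold to the same extent: of 24 replication licensing and fork genes 1 was lower, the helicase subunit gene Mcm6 with 13.9 FPKM in KO and 31.6 in WT. The 24 nucleotide synthesis and S-phase genes and the 24 mitosis genes had 0 called, with medians of -0.17 and -0.35. Most of these genes still had a negative difference: 22 of 24 in each of these lists, and 17 of 24 in the licensing and fork list.

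A run of 4 lower histone genes lay side by side on chromosome 13 (chr13:21716412-21735456): Hist1h2ai, Hist1h3h, Hist1h2bm and Hist1h4j. The promoters of Hist1h3h (chr13:21717378-21717677, plus strand) and Hist1h2bm (chr13:21721794-21722093, plus strand) are shown as examples of the CCAAT box of such genes, and Hist1h3h also of the TATAAA box, with matches on either strand in capitals. TATAAA was not in the window of Hist1h2bm.
Hist1h3h: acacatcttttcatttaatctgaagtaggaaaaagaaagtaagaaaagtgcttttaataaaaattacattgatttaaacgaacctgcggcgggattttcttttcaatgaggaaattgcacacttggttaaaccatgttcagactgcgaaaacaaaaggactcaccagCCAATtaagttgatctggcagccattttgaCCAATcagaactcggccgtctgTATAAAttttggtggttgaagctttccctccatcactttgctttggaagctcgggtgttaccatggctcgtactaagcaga
Hist1h2bm: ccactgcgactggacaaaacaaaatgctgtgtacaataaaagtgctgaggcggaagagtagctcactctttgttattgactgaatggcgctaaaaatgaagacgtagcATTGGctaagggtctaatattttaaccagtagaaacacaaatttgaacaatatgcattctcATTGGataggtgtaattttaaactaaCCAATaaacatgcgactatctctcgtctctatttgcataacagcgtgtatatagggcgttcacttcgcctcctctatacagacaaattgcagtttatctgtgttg
Of 46 histone genes with a promoter sequence 39 (84.8%) held CCAAT and 28 (60.9%) TATAAA, against 37.9% and 14.2% of all promoters. CCAAT was in 16 of 20 lower histone genes and in 22 of 24 under 2-fold.

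Imprinted genes, expressed from 1 parental allele and high in embryonic tissue, were lower in 7 of 19 cases and higher in 0. Mest had 83.4 FPKM in KO and 372 in WT, and the cell-cycle inhibitor gene Cdkn1c had 7.79 in KO and 36.0 in WT. Zim1 and Peg3, with the antisense Peg3as, formed a run of lower genes on chromosome 7, where Zim1 had 1.61 FPKM in KO and 11.5 in WT. Whether counting used the strand is not given in the sources used here, so Peg3 and Peg3as cannot be told apart. Igf2 had 372 FPKM in KO and 390.4 in WT. Hox genes, which record the position of origin along the body, had 0 of 32 called. Of 41 other position transcription factors 4 were lower and 1 higher: Meox1, of the somite, had 0.330 FPKM in KO and 16.0 in WT, and Msx2 had 6.15 in KO and 1.98 in WT.

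The medians of the ribosomal, respiratory chain and glycolysis lists stayed under 2-fold, with small shifts that differed in direction between lists. All 77 cytosolic ribosomal protein genes used had a negative difference (76 of 77 when both tables were rescaled to the same sum), with a median of -0.27, and only the testis-enriched paralogue Rpl39l was called (2.10 FPKM in KO, 6.78 in WT). The 76 nuclear genes of the respiratory chain had 0 called and a median of 0.07. Of 15 glycolysis genes 14 had a positive difference, 0 were called and the median was 0.48, with Pgk1 at 434 FPKM in KO and 259 in WT. The 23 p53 targets had 2 lower genes, Btg2 and Sesn1, and a median of 0.11. Both metallothioneins used were lower, Mt1 with 56.2 FPKM in KO and 127 in WT and Mt2 with 24.0 in KO and 52.1 in WT.

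Small RNA genes need a separate reading. Of 36 snoRNA, miRNA and guide RNA genes used, 13 were higher and 6 lower, and 15 of those 19 were listed at 0 in 1 culture. Mir24-2 had 987 FPKM in KO and was listed at 0 in WT, and Scarna3a was listed at 0 in KO and had 856 FPKM in WT. The called ones are 107 to 136 bp long, a length at which FPKM assigns large values to few fragments. The most abundant RNAs of both cultures were the RNA of RNase P (Rpph1), with 14276 FPKM in KO and 22835 in WT, and the RNA of RNase MRP (Rmrp), with 12289 in KO and 20052 in WT. They were followed by Actb, with 5787 FPKM in KO and 3914 in WT, and Eef1a1, with 5382 in KO and 5932 in WT.

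Chromosome and gene length were set beside the calls. Lower genes made up 2.50% to 6.54% of the used genes on chromosomes 1 to 19 and X, with the highest share on chromosome 13, and 2.89% there without the Hist1 genes. Among the shortest 20% of genes, up to 7.74 kb, 7.25% were lower and 2.70% higher, against 3.35% and 1.55% in the longest 20%. Within 10 Mb of Pml 157 genes were used, 4 of them higher (2.55%) and 7 lower (4.46%), close to the shares over all genes. The called gene nearest to Pml was Islr, which starts at -0.061 Mb from it and was lower (9.33 FPKM in KO, 28.7 in WT). The lower ones also included Crabp1, a retinoic acid binding protein (31.4 FPKM in KO, 217 in WT), and Nnmt, nicotinamide N-methyltransferase (1.86 in KO, 21.7 in WT).

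The ChIP region lists of the same series give the chromatin in which these genes lie, read from 1 library per genotype and target. For H3.3 the Flag-tagged library was used, and the HA-tagged library of each genotype was not. A gene was counted as covered when called regions overlapped at least 50% of its length. In the KO library H3K27me3, the mark of Polycomb repression, covered 35.1% of 445 lower genes, 23.3% of 202 higher genes and 10.1% of all 11645 genes with a position. In the WT library the shares were 44.9% of lower genes, 27.7% of higher genes and 12.3% of all. Restricted to genes of at least 5 FPKM in either culture, H3K27me3 in KO covered 26.0% of lower genes, 18.9% of higher genes and 6.33% of all. In WT it covered 37.2% of lower genes, 21.0% of higher genes and 7.47% of all at that minimum. Called genes of both directions were thus covered more often than all genes. H3K9me3, a mark of heterochromatin, covered 21.3% of lower and 17.8% of higher genes in KO, against 14.9% of all. At a minimum of 5 FPKM these shares in KO were 16.7% of lower and 11.9% of higher genes, against 12.3% of all. In the WT library H3K9me3 covered 13.9% of lower genes, 5.94% of higher genes and 5.98% of all. With the minimum of 5 FPKM the WT shares were 12.8% of lower genes, 4.90% of higher genes and 4.25% of all. Flag-tagged H3.3 covered 29.2% of lower and 47.0% of higher genes in KO, against 37.2% of all. In WT it covered 31.7% of lower and 42.1% of higher genes, against 35.3% of all.

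**Figure D4:**
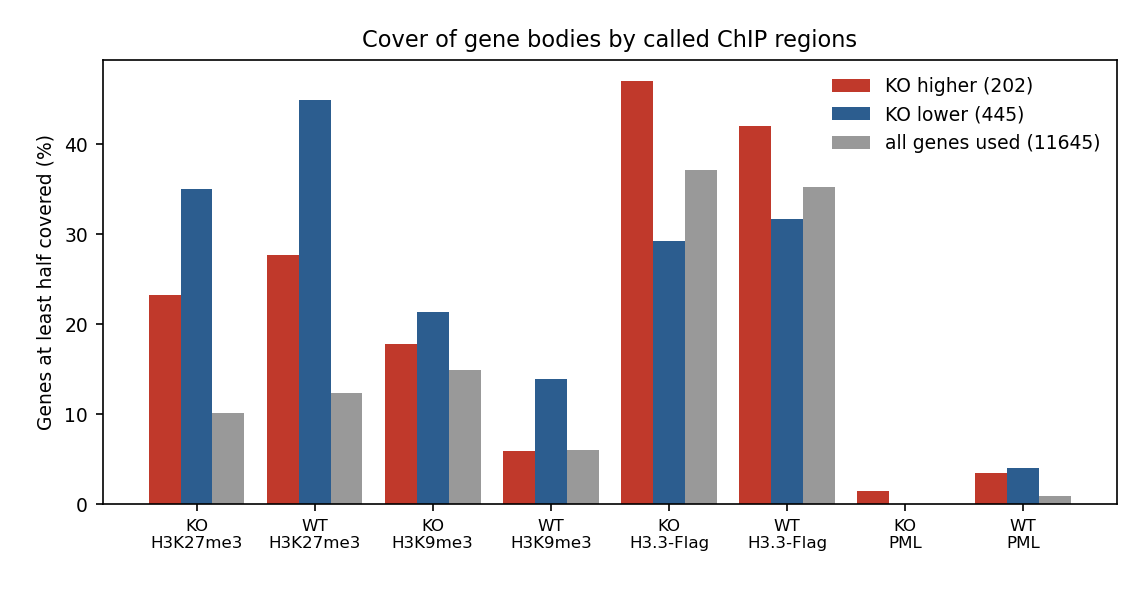
Share of genes at least 50% covered by called ChIP regions, in percent, for the higher genes (red), the lower genes (blue) and all used genes (grey), by target, with the KO library left of the WT library. Lower genes are covered by H3K27me3 in 35.1% (KO) and 44.9% (WT) of cases, against 10.1% and 12.3% of all genes.

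PML regions of the WT library covered 105 used genes, of which 7 were higher and 18 lower (6.67% and 17.1%). Over all used genes these shares were 1.74% and 3.83%, and over genes covered by H3K27me3 in WT 3.90% and 13.9%. The 18 lower genes in PML regions included Nnmt, Pdgfra and Zim1. They also included the macrophage genes Laptm5, Emr1 and Clec4d, with 0.111, 0.257 and 0 FPKM in KO and 3.51, 3.25 and 1.83 FPKM in WT. The median difference of the 105 genes was -0.02. The higher ones included Vstm2b, with 3.02 FPKM in KO and 0.248 in WT, and the RNase P-like RNA gene Rprl3, with 2468 in KO and 734 in WT. Gm3002, Gm10406 and Gm3558, the similar neighbours whose split of reads is uncertain, were also among the higher ones. At a minimum of 5 FPKM 42 genes covered by WT PML regions remained, 2 of them higher and 9 lower. PML regions of the KO library covered 6 used genes, of which 3 were higher and 0 lower. Genes whose H3K9me3 cover was larger by at least 50 percentage points in KO numbered 1123, with 27 higher (2.40%), 46 lower (4.10%) and a median of 0.02, close to the 1.74% and 3.83% of all used genes. Genes whose H3K27me3 cover was smaller by as much numbered 368, with 17 higher (4.62%), 55 lower (14.9%) and a median of -0.22. Of all 1435 genes covered by H3K27me3 in WT 3.90% were higher and 13.9% lower, so these shares are close to those of marked genes in general.

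The pooled tables of the 3 numbered cultures per genotype give a second reading of the same contrast, but they stand apart from the unnumbered ones. Rmrp had 1.74 FPKM in KO and 0.634 in WT there, and the histone list summed to 91.1 FPKM in KO and 456 in WT. Hist1h2bc alone held 20.2 FPKM of that sum in KO and 245 in WT. Of 76 ribosomal protein genes 56 were lower there and of 77 respiratory chain genes 42, with ribosomal sums of 76233 FPKM in KO and 388718 in WT. The part of these shifts in the overlaps below was not tested. Of the 11055 genes used there, 719 were higher (6.50%) and 1737 lower (15.7%). Of the 203 genes higher in the unnumbered KO culture 135 were used in the numbered tables, 27 of them higher there and 41 lower. The 27 are 13.3% of the 203 and 3.76% of the 719. Of the 448 lower genes 288 were used there, 85 of them lower and 71 higher, and the 85 are 18.97% of the 448 and 4.89% of the 1737. The shares of the 203 and the 448 count 68 and 160 genes under 1 FPKM in the numbered tables. They therefore have another base than the 6.50% and 15.7%, which are shares of genes used there. Among the genes named above that were also called in the same direction there, Dcn had 8.71 FPKM in KO and 53.1 in WT, and Lum 0.441 in KO and 5.87 in WT. Mgp had 896 FPKM in KO and 3244 in WT, and Nnmt 2.05 in KO and 112 in WT. Fos had 8.29 FPKM in KO and 18.5 in WT, Fosb 1.88 in KO and 7.24 in WT, and Ier2 55.5 in KO and 150.1 in WT. Clec11a, Acvrl1, Sfrp1, Nov and Mfap4 were lower there too, and Ppbp higher. Among the other higher genes, Gjb2 had 60.8 FPKM in KO and 1.31 in WT, Inhba 96.8 in KO and 34.7 in WT, and Has2 47.4 in KO and 17.6 in WT.

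Other members had the opposite direction in the numbered tables. Pdpn had 74.4 FPKM in KO and 17.9 in WT, Pdgfra 20.8 in KO and 4.97 in WT, and Des 57.1 in KO and 2.70 in WT. Ctgf had 800.3 FPKM in KO and 1944 in WT. Other genes described above as higher were lower at 2-fold there. They included Gm5506, Mgll, Tnfrsf11b, S100a4, Acta1, Anxa8, Rgs4, Tgfb2, Fstl3 and Pcolce2. Mgll, for example, had 0.743 FPKM in KO and 15.4 in WT there. Genes described above as lower that were higher at 2-fold there included Sfrp2, Igfbp4, Crabp1, Tgfbr3, Psmb8, Bst2, Mt1 and Mt2. Of 14 imprinted genes used there 5 were higher and 0 lower, and of 17 MAP kinase feedback genes 6 were higher and 0 lower. Interferon-stimulated genes were higher in 27 of 33 cases there, with 0 lower and a median of 2.08, and Isg15 had 58.1 FPKM in KO and 6.29 in WT. The median of the immediate-early list was 0.12 there, although Fos, Fosb and Ier2 were lower, and that of the contractile list was -0.47. Tyrobp, C1qa, C1qb and C1qc were listed at 0 in both numbered tables. The sex genes differed as well: Xist had 0.0517 FPKM in the numbered KO table and 19.5 in the numbered WT table, and Ddx3y 7.67 in KO and 0.0384 in WT. The difference between the pairs was not tested, as each table holds 1 value per gene.

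**Figure D5:**
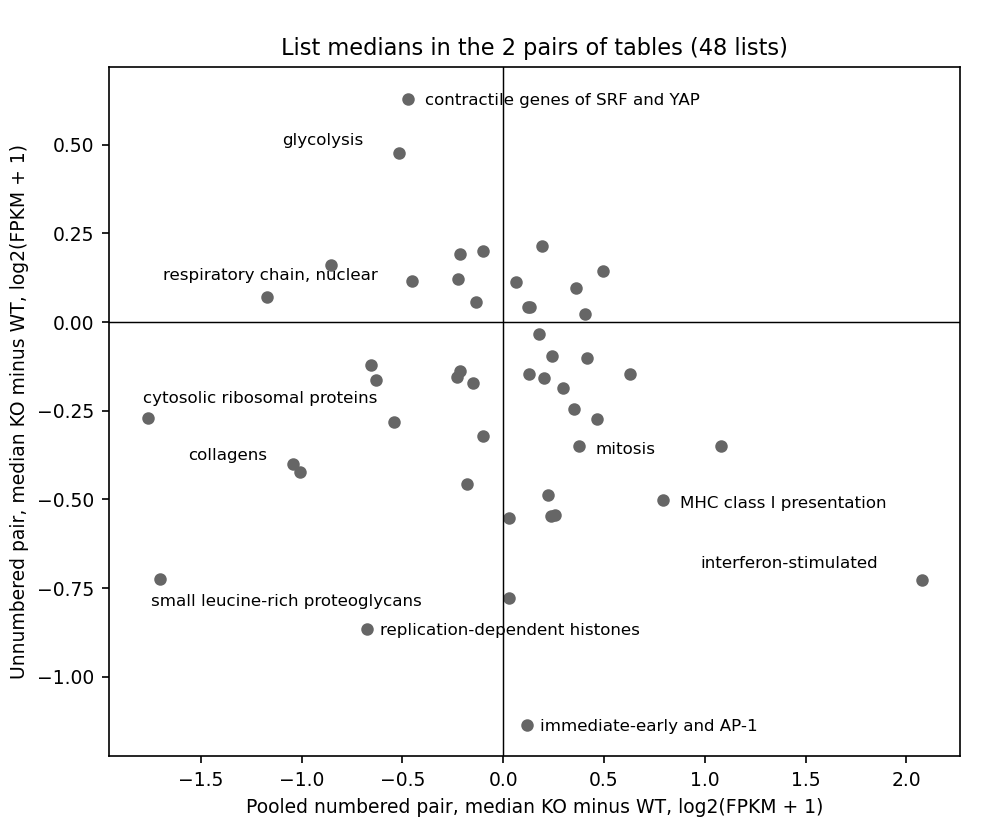
Median KO minus WT of log2(FPKM + 1) of 48 lists of at least 10 used genes, for the unnumbered cultures (vertical axis) against the pooled numbered cultures (horizontal axis). Small leucine-rich proteoglycans and histones lie below 0 on both axes, while interferon-stimulated genes lie at -0.73 on the vertical and 2.08 on the horizontal axis. Histone levels were low in the numbered cultures, with sums of 91.1 FPKM in KO and 456 in WT, against 3322 and 6245 in the unnumbered ones.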

How the data were processed

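RNA of 1 KO and 1 WT culture was analysed from tables that the authors deposited as FPKM, 1 value per gene. Per the submitters' processing notes, TopHat2 2.0.8b, Bowtie 1.0.0, Cufflinks 2.2.1 and Cuffdiff 2.2.1 and the build mm10 were used; annotation and strand setting are not given in the sources used here. FPKM was read as the last comma-separated field of each line, since gene names hold commas. The 271 lines naming several genes and repeated names were left out. The deposited ChIP lists, 1 per library, hold regions with a score. Only their positions on chromosomes 1 to 19 and X were used.

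Differences were KO minus WT of log2 of the deposited FPKM plus a pseudocount of 1, computed in pandas 2.3.3 and numpy 2.4.6 under Python 3.11.15. Figures were drawn in matplotlib 3.10.9. Symbols were matched to RefSeq (GRCm38.p6) for 11649 genes, 99.7%. The arithmetic of the calls was checked on simulated fold changes, which says nothing of the spread between cultures. With 1 culture per genotype there is no test, p-value or SD. The members and lists were chosen with earlier results of these data known. Genes were named by rule: the 20 coding genes of largest difference each way, the 4 largest per list, every member of lists of up to 10, Pml, sex-linked genes, the most abundant genes, and noncoding genes of largest difference. Other genes named were chosen after their values were seen, and some that the rule names are not reported here. Alternatives were another pseudocount, other minimums, rescaling in 2 ways, centring, coding genes only and multi-name lines kept. GC content was not analysed here.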

Additional observations from a re-analysis of the deposited data

Results flagged for a closer look

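Among lists with at least 3 used genes in both pairs of tables, 3 had medians of at least 0.5 in size and of opposite sign in the unnumbered cultures and in the pooled numbered tables, and none of these differences was tested. The interferon-stimulated list had a median log2 difference of -0.73 in the unnumbered cultures and of 2.08 in the numbered tables. For MHC class I presentation the median was -0.50 in the unnumbered cultures and 0.79 in the numbered tables. For the X-linked and Y-linked sex genes it was -0.88 in the unnumbered cultures and 1.42 in the numbered tables.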

How the results depend on the processing

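Of 8 alternatives, a pseudocount of 0.1 moved the count of higher genes to 347, against 203. Rescaling each table to a common sum above either deposited sum, which also raised every value against the pseudocount and the minimum, moved it to 335. Rescaling both tables to the mean of their sums, an alternative chosen after seeing the data, gave 231 higher and 418 lower genes. The pseudocount of 0.1 gave 708 lower genes and a minimum of 5 FPKM gave 290, against 448. Under the other alternatives both counts stayed within 1.5 times of those reported, and lower genes made up 64.4% to 72.5% of the called genes throughout. Pml had a difference between -0.84 and -0.69, and the median over all genes one between -0.03 and 0.05. Of 159 named genes at 2-fold, 1 was under it after rescaling to the common sum, 4 after rescaling to the mean sum, 1 after centring and 0 with the pseudocount of 0.1, and 0 reversed. The macrophage, immediate-early, histone and proteoglycan lists kept more lower than higher genes under all 8. Of 5 list medians at 2-fold, 3 fell under it with no minimum (connexins, mesothelial and neural markers). With a minimum of 5 FPKM 4 list medians changed sign, those of the chemokines, the Wnt ligands, the Notch pathway and the Polycomb list. No paired analysis was possible because each genotype has 1 unnumbered culture, and the numbered replicates are pooled in 1 column per genotype. No replicate could be left out. Values near 1 FPKM rest on few fragments, which limits the calls among low genes.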

Other observations

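Several groups not described above also held called genes. Of 11 aldehyde and retinoid genes 3 were lower and 1 higher. Crabp1 is given above, and Aldh1a1, a retinaldehyde dehydrogenase, had 1.49 FPKM in KO and 5.00 in WT. Rbp4, the retinol carrier of plasma, had 4.52 FPKM in KO and 0.656 in WT. In the Notch pathway 2 of 9 genes were lower and 0 higher: the target Hes1 had 59.4 FPKM in KO and 194 in WT, and Hey1 had 6.01 in KO and 13.2 in WT. Among 11 snoRNA host genes 3 were lower, of which Snhg12 had 37.9 FPKM in KO and 124 in WT, and Snhg9 was listed at 0 in KO with 13.3 FPKM in WT. Of 23 fibroblast cytokine genes 4 were higher and 2 lower, with the alarmin Il33 at 0.135 FPKM in KO and 3.46 in WT.

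Of 129 higher genes with a promoter sequence 9 (6.98%) held a CArG box, the motif bound by SRF, against 1.57% of all promoters and 1.84% of 326 lower genes. The 9 were Acta1, Fhl1, Ldb3, Ppbp, Asb5, Cbr2, Hist1h2bp, Fam65b and Gm3558. Of 21 contractile genes 3 held one, and those 3 were under 2-fold.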
